A study of Mus musculus with 16 samples.

Results

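The comparison described here is estradiol against vehicle in mouse liver kept in culture. It was made over 8 of the 16 libraries of the series: 4 of liver with 10 nM 17β-estradiol (E2, the main natural estrogen) and 4 of liver with ethanol vehicle, each after 4 h. The members were chosen by tissue and treatment, as the column names of the deposited table give them, and every gene was kept. All livers came from female wild-type C57BL/6 mice that had been ovariectomized at 6 to 7 weeks of age, 1 week before the tip of the major lobe was taken, so that both groups lacked ovarian estrogen until the culture step. Per the labels, some libraries were made with the Ovation kit from 50 ng of RNA and others by poly-A selection with the TruSeq kit from 600 ng of RNA of a single liver fragment, while the series text speaks of replicates that each hold the tissue of 4 mice. The column names mark 2 kinds of library by the letters o and n (o1, o2, n1 and n2 in each group), and no label says what the letters stand for. Nothing ties the libraries to single animals, so the spread between them may be partly technical.

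Estradiol acts mainly through estrogen receptor alpha, encoded by Esr1, a nuclear receptor that binds DNA at palindromic estrogen response elements and recruits coregulators to switch genes on or off. The liver is an estrogen target: estrogen is known to raise hepatic angiotensinogen and to change lipoprotein, bile acid and clotting proteins. Much of the sex difference of the mouse liver is known to be set by the pattern of growth hormone rather than by direct action of estrogen. Hepatocytes make up most of the organ's RNA, and Kupffer cells (the resident macrophages), sinusoidal endothelial cells, stellate cells and bile duct cells make up the rest.

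Reads assigned to genes ran from 3896733 to 13078032 per liver library. Genes took 24.7% to 28.0% of the reads in the o libraries and 37.5% to 51.6% in the n libraries. The tissue label held: of 40 hepatocyte genes 39 were higher in every liver library than in every aorta library of the series, and their summed level was 112403 to 372493 counts per 1000000 gene counts (CPM) in liver and 295 to 908 CPM in aorta. The o and n libraries of vehicle liver differed by more than 4-fold in either direction for 4165 of 11726 genes (35.5%). Across genes the n minus o level in vehicle liver had a Spearman's rho of −0.53 with transcript length, a description only, since genes of the same libraries are not independent.

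E2 left no gene past the threshold in liver. The test covered 11726 genes with the library type as a covariate, 0 had an adjusted p under 0.05 (0.00% called), and the smallest adjusted p was 0.939 by the quasi-likelihood test of edgeR. Before adjustment 502 genes had a p under 0.05 (4.28%), 299 higher with E2 (2.55%) and 203 lower (1.73%), and 586.3 would be expected by chance alone. DESeq2 and limma voom on the same 11726 genes also called 0, with 604 and 806 genes at an unadjusted p under 0.05. The genes below are therefore described by their levels and by the interval of their difference, and none is called changed.

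The width of the intervals says what size of effect, shared by both kinds of library, the 8 libraries could have shown. For 6907 genes (58.9%) the 95% interval of the log2 difference lay wholly between −1 and 1. Among the 2639 genes with a mean of 50 CPM or more this held for 2445 (92.6%). For genes within these bounds a shared 2-fold effect in either direction lay outside the interval. The fit holds a single E2 effect for the o and n libraries, so an interval does not bound the effect within either kind. An interval within 1.5-fold in either direction was reached for 1365 genes. The median standard error (SE) of a log2 difference was 0.30.

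Receptors and coregulators come first. Esr1 stood at 18.4, 28.0, 6.44 and 5.99 CPM in the vehicle libraries o1, o2, n1 and n2 and at 17.3, 28.4, 7.26 and 5.58 CPM in the E2 libraries in the same order. Esr1 was higher in each o library than in any n library, and the groups overlapped within each kind: the log2 difference was 0.02 ± 0.26 (SE, n = 4 libraries a group), with a 95% interval of −0.55 to 0.58. The second receptor, Esr2, had no count in any liver library, and the membrane estrogen receptor gene Gper1 had 12 counts over the vehicle and 10 over the E2 libraries, too few to test. Nrip1, a corepressor that estrogen induces in other tissues, differed by −0.13 (interval −0.62 to 0.36). Of 23 receptor and coregulator genes tested 7 were higher and 16 lower, with a median of −0.20, against −0.01 over all genes tested. In o 12 were higher and 10 lower (median 0.05), and in n 6 were higher and 17 lower (median −0.31). At an unadjusted p under 0.05 lay 2 of the lower, against 1.73% of all genes. Among them was Ep300, the gene of a histone acetyltransferase that serves many nuclear receptors (−0.58 ± 0.25), at −0.14 in o and −1.10 in n. Ncor1, a corepressor gene and the most abundant of the list, lay at −0.01 in o and −0.71 in n. Foxa2, the gene of a pioneer factor that opens chromatin in liver, lay at 0.43 (interval −0.10 to 0.97).

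Classical estrogen targets of uterus and breast gave no common direction. Of 32 tested, 17 were higher and 15 lower (median 0.03). Pgr had 26 counts over the vehicle and 3 over the E2 libraries, and Greb1 had 5 and 10. Myc, a growth regulator and estrogen target in breast cells, stood at 52.8, 82.0, 38.5 and 55.1 CPM with vehicle (o1, o2, n1, n2) and at 81.4, 89.7, 120.3 and 71.4 CPM with E2. Every E2 library of Myc lay above the vehicle libraries of its kind except o1, which lay between them (0.71, interval 0.19 to 1.22). Adora1, an adenosine receptor gene, lay the other way at −1.58 ± 0.48, from a mean of 4.97 ± 2.30 CPM with vehicle to 1.75 ± 1.07 CPM with E2 (SD, n = 4), and the groups did not overlap within either kind.

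Angptl4, whose secreted product blocks lipoprotein lipase and which the fatty acid receptor PPAR alpha is known to induce, had the lowest unadjusted p of all genes. It stood at 44.2, 12.6, 34.7 and 40.9 CPM with vehicle and at 17.7, 5.10, 19.1 and 18.7 CPM with E2 (o1, o2, n1, n2). The o2 libraries were low in both groups, and within each suffix the E2 library was the lower. The difference was −1.31 in the o libraries alone, −1.004 in the n libraries alone and −1.15 ± 0.23 in all 8 (interval −1.64 to −0.66). Genes of fatty acid oxidation and PPAR targets, Angptl4 among them, did not share one direction: of 46 tested 22 were higher and 24 lower (median −0.01). At an unadjusted p under 0.05 lay 2 of each, Angptl4 included, against 2.55% higher and 1.73% lower over all genes. In o 29 of 44 were lower (median −0.11), and in n 27 of 46 were higher (median 0.11). Cpt1a, the gene of the enzyme that admits long-chain fatty acids to mitochondria, lay at −0.69 ± 0.27 with the groups apart within both kinds. Acads, a short-chain acyl-CoA dehydrogenase gene, lay at 0.56 ± 0.21, also apart within both kinds. Fabp1, the most abundant member (the liver fatty acid binding protein gene), lay at −0.16 (interval −0.64 to 0.32).

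**Figure D1:**
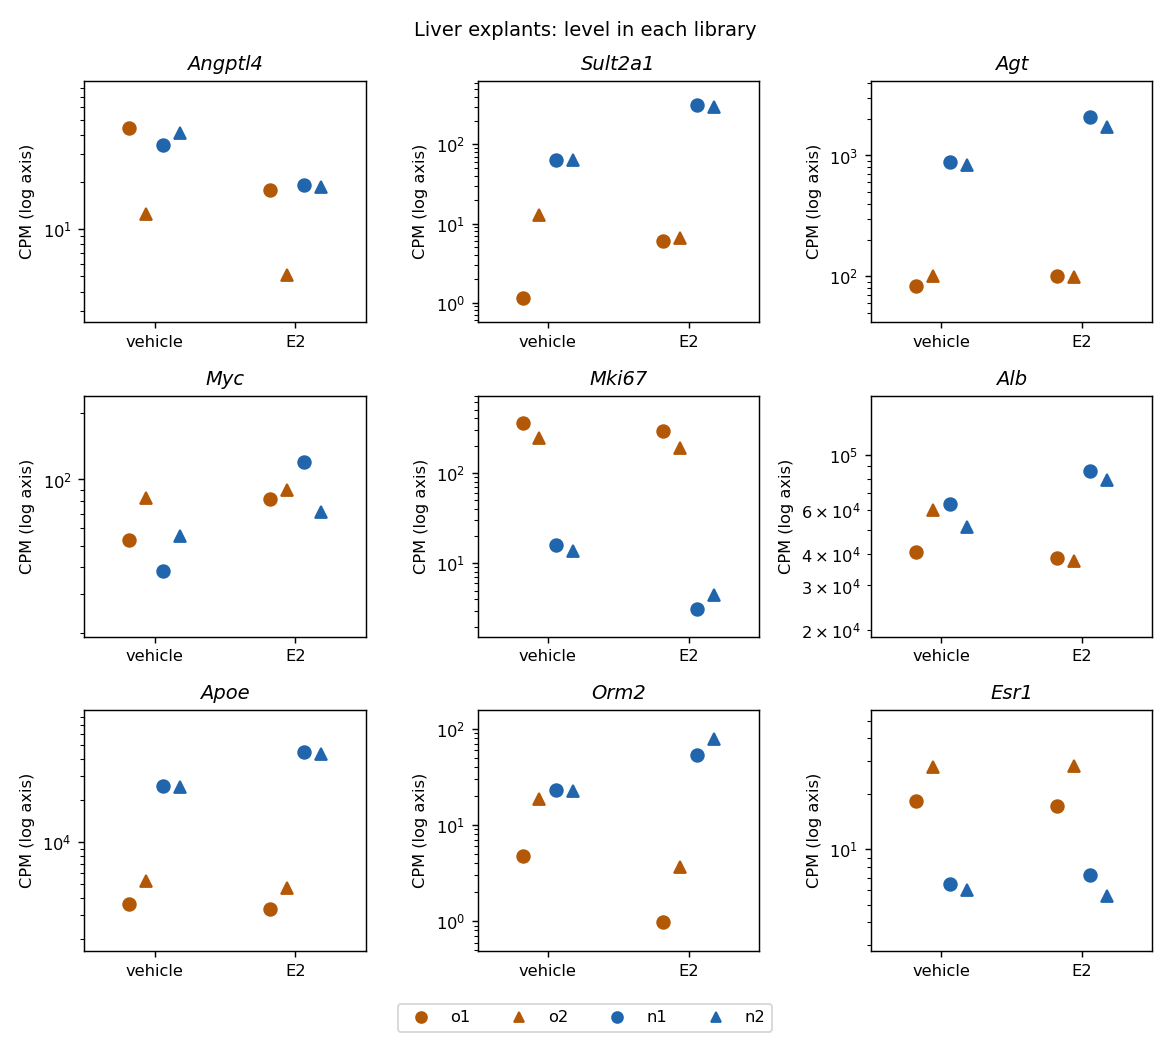
Level of 9 genes in each liver library, in CPM on log axes that differ between panels, for vehicle and E2; colours mark the kind of library (o or n) and shapes the suffix number. Angptl4 is lower with E2 in both kinds, while Agt, Alb, Apoe and Orm2 are higher with E2 in the n libraries only.

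The direction of the E2 effect often differed between the o and the n libraries, and the difference between the kinds was tested gene by gene. Across the 10376 genes measured in both kinds, the E2 effects of the o and of the n libraries had a Pearson r of −0.09 and the same sign for 45.2% of genes. They share no library, but genes are not independent. The groups lay apart within both kinds in the same direction for 272 genes higher (2.32%) and 299 lower (2.55%). They lay apart in opposite directions for 426 genes lower with E2 in o and higher in n (3.63%) and for 405 the other way (3.45%). In the interaction of E2 with the kind of library, 0 genes had an adjusted p under 0.05 (0.00%). The smallest adjusted p was 0.0830, for Orm2 (edgeR, quasi-likelihood test). Of the 1463 genes at an unadjusted p under 0.05, 803 had the higher effect in n (6.85%) and 660 the lower (5.63%). DESeq2 called 160 genes and limma voom 0.

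Hepatocyte genes were among the lists with opposed directions. In the o libraries alone 38 of 40 were lower with E2 (median −0.30), and in the n libraries alone 35 of 40 were higher (median 0.68). Of the 40, 30 had an unadjusted p under 0.05 for the difference between kinds, all with the higher effect in n, against 6.85% of all genes. Relative to the mean of the vehicle libraries of their kind, the E2 libraries had medians over the 40 genes of −0.32 and −0.29 for o1 and o2. For n1 and n2 the medians were 0.60 and 0.72. The vehicle o libraries were unlike each other: with the 8 liver libraries scaled together, the summed level was 98673 CPM in o1 and 134604 CPM in o2. With E2 it was 94802 and 93826 CPM, so same-numbered libraries differed little in o1 and more in o2. Over all 8 libraries together 31 were higher and 9 lower, with a median of 0.21. The difference was not tested for the list as a whole.

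Alb, the albumin gene and the most abundant of them, stood at 40770.2 and 60186 CPM in the vehicle o libraries and at 38741 and 37460.1 CPM in the E2 o libraries. In the n libraries Alb stood at 63349 and 51237 CPM with vehicle and at 85975 and 78952 CPM with E2. The groups did not overlap within either kind, in opposite directions (−0.38 in o, 0.52 in n), and over all 8 libraries Alb lay at 0.08 with an interval of −0.54 to 0.69. Apoe, the apolipoprotein E gene, stood at 3572 and 5249 CPM with vehicle and 3286 and 4713 CPM with E2 in o, and at 25343 and 24948 CPM with vehicle and 44622 and 43555 CPM with E2 in n. Its groups overlapped in o and lay far apart in n (n minus o difference of the E2 effect 0.95 ± 0.23). C3, the central complement gene, went the same way: 14856 and 15060.5 against 13956 and 11748 CPM in o, and 8617 and 6886 against 13736 and 15147 CPM in n, vehicle before E2 (difference 1.12 ± 0.26).

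Hnf4a, which encodes a transcription factor central to hepatocyte identity, was 1 of the 5 hepatocyte genes lower with E2 in n. In o 38 of the 40 were lower. Hnf4a was lower with E2 in both kinds. It stood at 79.1, 96.4, 42.5 and 38.2 CPM with vehicle and 62.9, 60.6, 33.3 and 16.7 CPM with E2 (o1, o2, n1, n2). The groups did not overlap within either kind, and the log2 difference was −0.58 (interval −1.06 to −0.09). It was the 1 hepatocyte gene of 40 at an unadjusted p under 0.05, against 4.28% of all genes. Hnf4a was named for its low p and for E2 levels below those of each same-numbered vehicle library. Its direction therefore follows from how it was picked.

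**Figure D2:**
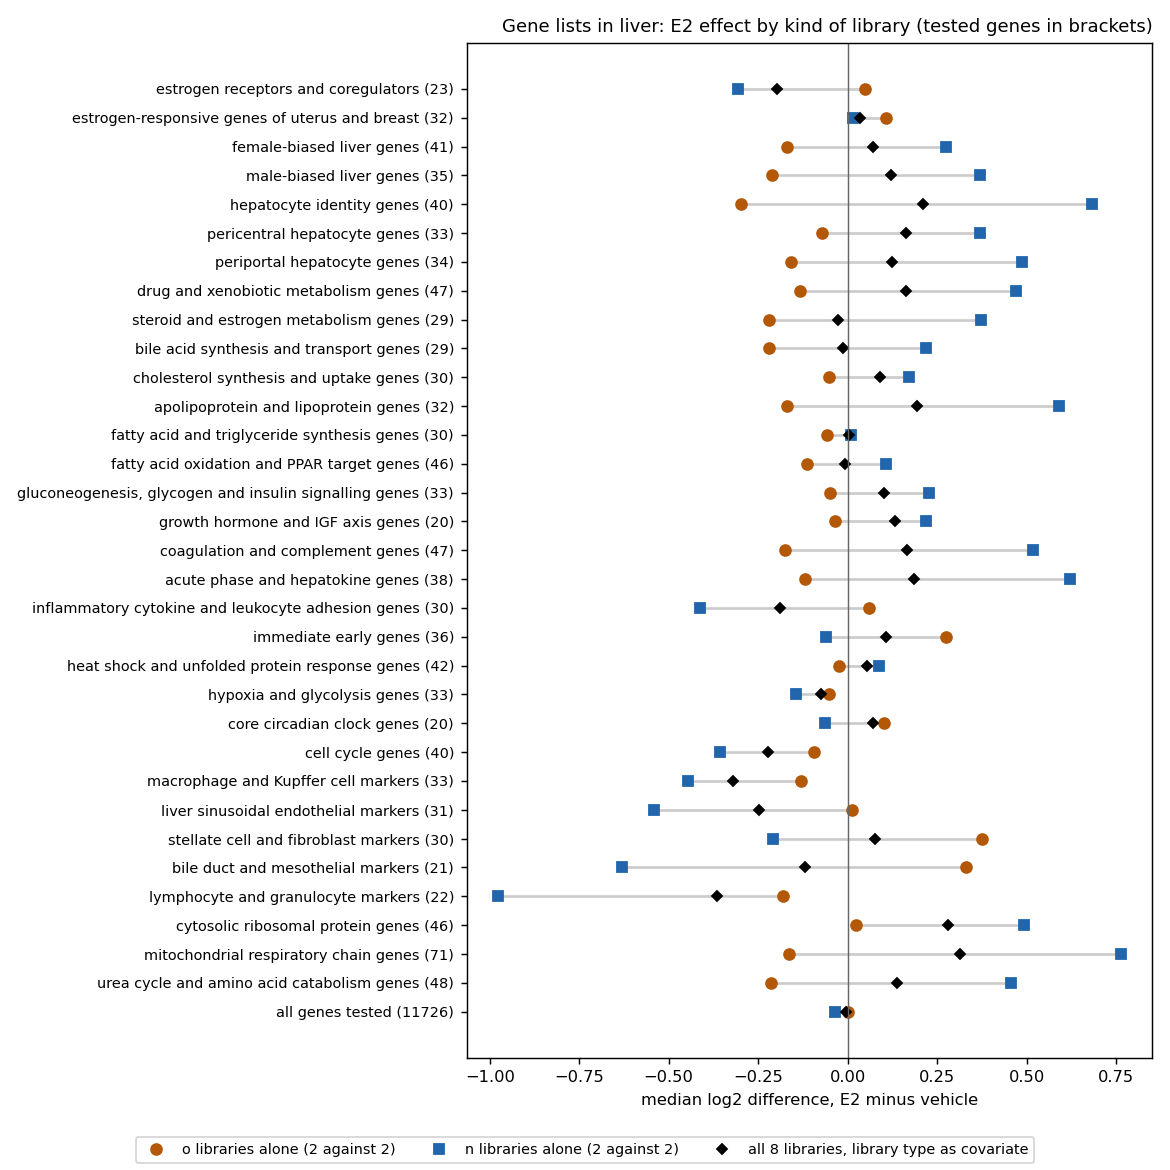
Median log2 difference, E2 minus vehicle, for 32 gene lists and for all genes tested, from the o libraries alone (circles), the n libraries alone (squares) and all 8 libraries with library type as covariate (diamonds); grey lines join the kinds. Hepatocyte genes lie at −0.30 in o and 0.68 in n, and mitochondrial respiratory chain genes at −0.16 and 0.76.

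Other metabolic and secretory lists followed the hepatocyte genes. Apolipoprotein and lipoprotein genes had a median of −0.17 in o (28 of 32 lower) and 0.59 in n (22 of 32 higher). Coagulation and complement genes had −0.17 (40 of 47 lower) and 0.52 (35 of 47 higher), acute phase and hepatokine genes −0.12 and 0.62, and urea cycle and amino acid catabolism genes −0.21 and 0.46. At an unadjusted p under 0.05 for the difference between kinds, 6.85% of all genes had the higher effect in n. Among members of these lists the number was 16 of 32, 21 of 47, 16 of 38 and 19 of 48. Hpd, a tyrosine catabolism gene, showed it with 756 and 961 CPM against 629 and 842 CPM in o and 2367 and 2595 CPM against 3603 and 5775 CPM in n. Sds, the serine dehydratase gene of periportal hepatocytes, lay at −0.16 in o and 1.11 in n.

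Position along the liver lobule was described with markers of the cells around the central vein and the portal tract. Periportal genes had medians of −0.16 in o and 0.49 in n, and pericentral genes −0.07 and 0.37. Glul, the glutamine synthetase gene that marks the innermost pericentral cells, stood at 203, 179.9, 133 and 192 CPM with vehicle and 231, 204, 132 and 202 CPM with E2 (o1, o2, n1, n2). The groups of Glul lay apart in o and overlapped in n, and the difference was small (0.11, interval −0.34 to 0.57). Cyp2e1, a more widely expressed pericentral P450 gene, lay at −0.27 in o and 0.61 in n. Agxt, a periportal gene of glyoxylate metabolism, was higher with E2 in the n libraries (927 and 990.4 against 389 and 510.5 CPM) and lay at 0.73 (interval 0.25 to 1.22) over all 8.

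Orm2 and Orm3 were first and the third by p for the difference between kinds. They encode orosomucoids, acute phase proteins secreted by hepatocytes, and are near copies of each other, so that reads may have been divided between them. Orm2 stood at 4.76 and 18.5 CPM with vehicle and 0.972 and 3.68 CPM with E2 in o, and at 23.3 and 22.7 CPM with vehicle and 53.7 and 78.1 CPM with E2 in n. Orm3 stood at 0.906 and 1.88 CPM against 0 and 0.251 CPM in o and at 30.5 and 18.2 CPM against 82.9 and 71.1 CPM in n. For both genes the E2 libraries lay below the vehicle libraries in o and above them in n. The n minus o difference of the E2 effect was 3.82 ± 0.49 for Orm2 and 4.73 ± 0.82 for Orm3, the latter resting on few counts in o. The other genes with the lowest p and a higher effect in n were Nnmt, the nicotinamide N-methyltransferase gene (2.85 ± 0.45), Hamp2, a hepcidin gene (2.79 ± 0.52), and Hexim2 (6.33 ± 1.15). Hexim2 had 16.9 CPM in the vehicle o2 library and at most 0.251 CPM in the other o libraries. On the lower side lay Dab2, an endocytic adaptor gene of macrophages and endothelium (−1.75 ± 0.35), Kif26a (−5.41), Mme (−4.80), Mki67 (−1.72 ± 0.36) and Smchd1 (−2.03).

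The promoters of both orosomucoid genes are shown because the genes neighbour each other, encode near copies and were both among the 5 genes with the lowest p and a higher effect in n. The RefSeq windows run from 250 bases before to 50 bases after the gene start, in GRCm38.p6, on the plus strand, at chr4:63362199-63362498 for Orm2 and chr4:63355908-63356207 for Orm3. Capitals mark GGTCA or TGACC, the arms of the palindromic estrogen response element (GGTCA, 3 bases of any kind, TGACC), searched on both strands.
Orm2: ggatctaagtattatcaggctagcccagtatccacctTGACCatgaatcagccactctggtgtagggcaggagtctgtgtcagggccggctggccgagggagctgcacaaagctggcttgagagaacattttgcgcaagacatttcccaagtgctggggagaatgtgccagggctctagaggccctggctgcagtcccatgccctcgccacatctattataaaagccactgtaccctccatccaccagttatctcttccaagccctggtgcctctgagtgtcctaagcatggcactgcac
Orm3: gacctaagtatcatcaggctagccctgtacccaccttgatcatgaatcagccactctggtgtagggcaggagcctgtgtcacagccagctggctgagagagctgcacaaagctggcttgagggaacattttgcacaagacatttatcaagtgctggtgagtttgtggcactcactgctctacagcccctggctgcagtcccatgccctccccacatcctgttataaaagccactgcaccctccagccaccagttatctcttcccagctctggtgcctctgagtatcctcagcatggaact
The Orm2 window holds 1 such arm, 213 bases before the start, and the Orm3 window none. An arm was present in 40.5% of all 32851 windows, and in 43.3% of the 8867 tested genes with a window. The median log2 difference was 0.01 for tested genes with an arm and −0.01 for those without. The whole palindrome was found in 0.0700% of windows and in 0 of those 8867 genes.

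Agt, the angiotensinogen gene, is a known hepatic estrogen target. It stood at 83.4 and 101 CPM with vehicle and 101 and 99.4 CPM with E2 in o, and at 891 and 840.1 CPM with vehicle and 2067 and 1709 CPM with E2 in n. The groups of Agt overlapped in o and lay apart in n, and the log2 difference was 0.63 ± 0.24 over all 8 libraries (interval 0.12 to 1.15), 0.12 in o and 1.12 in n. The n minus o difference was 1.00 ± 0.28. Its RefSeq window (GRCm38.p6, chr8:124569657-124569956, minus strand) is shown with the same marking and holds 1 arm, 124 bases before the start.
Agt: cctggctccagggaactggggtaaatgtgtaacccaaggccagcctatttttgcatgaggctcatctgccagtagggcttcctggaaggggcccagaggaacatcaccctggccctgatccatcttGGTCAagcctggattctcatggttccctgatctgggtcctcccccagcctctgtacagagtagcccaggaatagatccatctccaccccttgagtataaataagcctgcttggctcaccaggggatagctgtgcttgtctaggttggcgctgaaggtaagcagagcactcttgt
The metallothionein genes Mt1 and Mt2, which bind metals and respond to many hormones, lay at 0.64 (interval 0.09 to 1.19) and 0.56 (−0.15 to 1.27). Mt2 was at −0.24 in o and 1.26 in n.

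**Figure D3:**
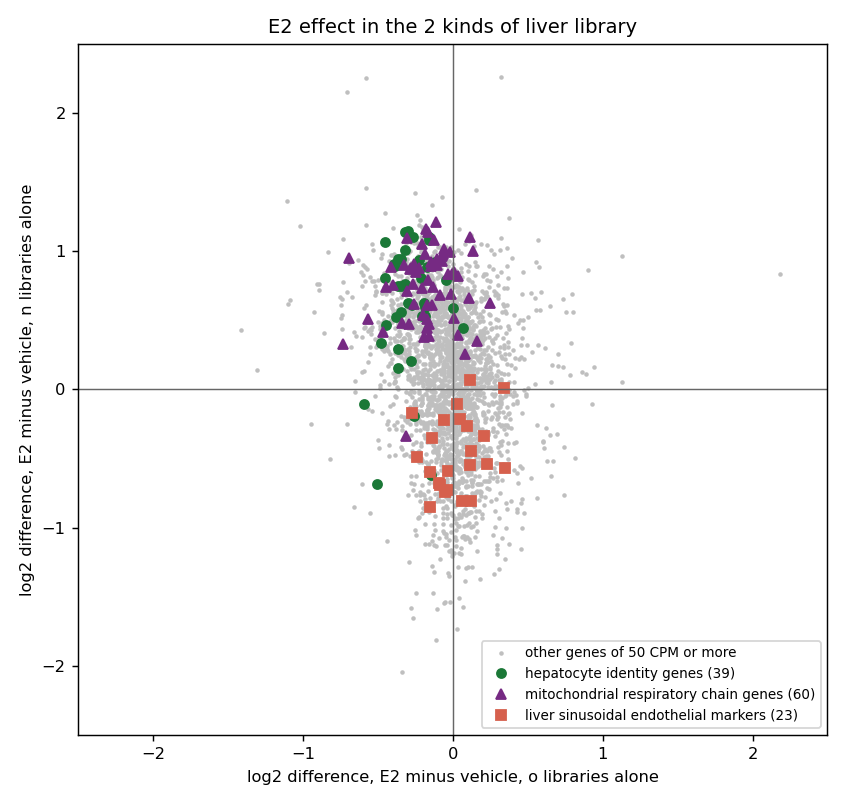
Each point is 1 of 2626 genes with a mean of 50 CPM or more and a value in both fits; the axes give the log2 difference, E2 minus vehicle, in the o libraries alone (horizontal) and the n libraries alone (vertical). Most hepatocyte and mitochondrial genes lie left of 0 and above 0, and sinusoidal endothelial markers lie mostly below 0 on the vertical axis.

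Sex-biased liver genes, which the growth hormone pattern is known to control, showed no common direction over all 8 libraries. Of 41 female-biased genes tested 25 were higher and 16 lower (median 0.07), and of 35 male-biased genes 20 were higher and 15 lower (median 0.12). Both lists were lower in o (31 of 40 and 23 of 33 measured there) and higher in n (30 of 41 and 22 of 33). Sult2a1, a female-biased sulfotransferase gene that inactivates steroids and bile acids, stood at 1.13, 12.8, 63.9 and 64.1 CPM with vehicle and at 6.08, 6.52, 317 and 299 CPM with E2 (o1, o2, n1, n2). Both E2 n libraries of Sult2a1 lay well above both vehicle n libraries, while in o the E2 values lay between the vehicle values. Its difference was 0.32 in o, 2.26 in n (adjusted p 0.00934 in that fit of 4 libraries, edgeR, quasi-likelihood test) and 1.48 ± 0.45 over all 8. The n minus o difference was 2.29 ± 0.67, but it rested on the o2 libraries: without the vehicle o2 library it was −0.09 and without the E2 o2 library −0.14. Leaving out either of these put the E2 difference at 2.33 and 2.28, with adjusted p of 0.00289 and 0.00410 (edgeR, quasi-likelihood test). The fit gives o2 a level of its own, so the o2 library left behind adds nothing to this difference. Both values therefore rest on the same o1 and n libraries. Several close copies of this gene exist, and reads may have been divided between them.

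A1bg, the most abundant female-biased gene, lay at 0.15 (interval −0.35 to 0.65). Cyp2b9, a female-biased P450 gene, stood at 392, 437, 346 and 300.4 CPM with vehicle and 472, 326, 296 and 411 CPM with E2, an overlap within each kind (0.02, interval −0.43 to 0.47). Cyp17a1, a steroid 17-hydroxylase gene, lay at −1.09 in o and 0.65 in n (interval over all 8 libraries −0.79 to 0.55). Cyp2d9, a male-biased P450 gene, lay at −0.60 in o and 0.74 in n (interval over all 8 −0.46 to 0.91). Among male-biased genes Elovl3, a fatty acid elongase gene, was low throughout (4.45 ± 3.10 CPM with vehicle and 2.13 ± 2.11 CPM with E2, SD, n = 4) at −1.50 (interval −2.79 to −0.21). Cyp3a41a had 6 and 5 counts and was not tested.

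Genes of the growth hormone and insulin-like growth factor axis were described next. Igf1 stood at 1564, 1676, 527 and 426 CPM with vehicle and 1292, 1260.3, 547 and 627 CPM with E2. The E2 libraries of Igf1 lay below the vehicle libraries in o and above them in n, so that the difference over all 8 was −0.02 (interval −0.49 to 0.44). Igfbp2, a binding protein gene, was higher with E2 in every suffix (15.9, 9.41, 373 and 183 CPM against 29.2, 17.9, 738 and 300.0 CPM) at 0.90 (interval 0.28 to 1.53). Lifr, the leukemia inhibitory factor receptor gene, stood at 397, 368, 235 and 104 CPM with vehicle and 337, 334, 340.1 and 259 CPM with E2, opposed between the kinds like Igf1. Socs2 and Cish, feedback inhibitors of growth hormone signalling, lay at 1.01 ± 0.51 and 0.43 ± 0.41, and the E2 n1 library was the highest for both (32.3 and 51.5 CPM). Without that library Socs2 lay at 0.23 and Cish at −0.082.

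Bile acid, sterol and glucose genes were described by the same intervals, which lay within −1 and 1 for 58.9% of all genes tested. Among genes of 50 CPM or more the share was 92.6%. Cyp7a1, the rate-limiting enzyme gene of bile acid synthesis, stood at 150.4, 241, 30.9 and 10.97 CPM with vehicle and 162, 262, 18.1 and 20.4 CPM with E2. The values overlapped within each kind, and the difference was 0.00 (interval −0.58 to 0.58). Of 29 bile acid genes 14 were higher and 15 lower, and 25 had an interval within −1 and 1. At an unadjusted p under 0.05 lay 0 of them, against 4.28% of all genes. In o 24 of the 29 were lower (median −0.22), and in n 19 of the 29 were higher (median 0.22). Slc27a5, which encodes a bile acid-CoA ligase, lay at −0.29 in o and 1.00 in n (n minus o 1.28 ± 0.29). Akr1d1, the 5-beta-reductase gene of the same pathway, lay at −0.51 (interval −1.04 to 0.02). Of 30 cholesterol genes 17 were higher and 13 lower, and 29 had an interval within −1 and 1. Mylip, whose product degrades the LDL receptor, lay at −0.95 (−1.68 to −0.22). Among genes that build fatty acids and triglycerides, 30 in all, 16 lay higher and 14 lower (median 0.00), none at an unadjusted p under 0.05. Pck1, a gluconeogenic gene, lay at 0.27 (−0.27 to 0.82).

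Markers of 3 other classes of liver cell lay mostly lower with E2 over all 8 libraries, and those of bile duct and stellate cells were opposed between the kinds. Over all 11726 genes tested 5943 were lower (median −0.01), and 1.73% were lower at an unadjusted p under 0.05. Of 33 macrophage and Kupffer cell markers 30 were lower (median −0.32), 3 at an unadjusted p under 0.05. Their medians were −0.13 in o and −0.44 in n. Of 31 sinusoidal endothelial markers 28 were lower (median −0.25), with 0.01 in o and −0.54 in n. Lymphocyte and granulocyte markers lay lower in 20 of 22 (median −0.36; −0.18 in o and −0.98 in n). Of 21 bile duct and mesothelial markers 8 were higher and 13 lower (median −0.12; 0.33 in o and −0.63 in n). Of 30 stellate cell and fibroblast markers 20 were higher and 10 lower (median 0.08; 0.38 in o, where 27 were higher, and −0.21 in n, where 22 were lower). In bulk RNA fewer cells of a type and less RNA per cell cannot be told apart.

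Within these lists several genes lay lower in both kinds. Clec4f, which marks Kupffer cells, stood at 91.5, 74.4, 98.6 and 117 CPM with vehicle and 69.5, 54.2, 93.4 and 83.9 CPM with E2. The groups of Clec4f did not overlap within either kind (−0.35, interval −0.76 to 0.05), which 2.55% of all genes shared in that direction. Fcgr2b, an Fc receptor gene of sinusoidal endothelium, stood at 22.2, 25.4, 66.3 and 75.2 CPM against 17.7, 17.3, 45.5 and 41.5 CPM, also apart within both kinds (−0.58, interval −1.01 to −0.15). Timd4, a receptor gene of resident Kupffer cells for dying cells, lay at −1.17 ± 0.37, with 175 and 162 CPM in the vehicle o libraries and at most 3.87 CPM in any n library. Over the alternative fits Timd4 ran from −1.76 to −0.74. Siglece, an inhibitory receptor gene of myeloid cells, lay at −1.28 ± 0.38. Ptprc, the gene of the leukocyte antigen CD45, is not in these lists and lay at −0.83 ± 0.28. Ptprc and Timd4 were picked by a low p and a lower level in all 4 suffixes, so their direction was set by that choice. Spp1, the osteopontin gene of bile duct cells, lay at 0.46 in o and −1.01 in n. Muc1, a mucin gene of the same cells, lay at −0.77 (interval −1.47 to −0.08), while Elf3, an epithelial transcription factor gene, lay at 1.82 (interval 0.78 to 2.85).

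The summed level of the macrophage markers was 2174 to 2480 CPM with vehicle and 2023 to 2030 CPM with E2 in o, and 1672 to 2074 CPM and 1789 to 1880 CPM in n. That of the sinusoidal endothelial markers in n was 3042 to 3294 CPM with vehicle and 2047 to 2953 CPM with E2. The summed hepatocyte level in n was 212093 to 229704 CPM with vehicle and 358279 to 372493 CPM with E2, and in o 116230 to 167180 CPM and 112403 to 113487 CPM. No marker of these lists was at 0 in every liver library. The part of cell makeup in the E2 effects was not tested.

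Proliferation genes lay lower in 26 of 40 (median −0.22; −0.09 in o and −0.36 in n). Mki67, the proliferation antigen gene, stood at 357 and 244 CPM with vehicle and 287 and 189 CPM with E2 in o, and at 16.1 and 13.7 CPM with vehicle and 3.09 and 4.46 CPM with E2 in n. The groups of Mki67 overlapped in o and lay apart in n, and the difference was −1.02 ± 0.30. Mdc1, a DNA damage checkpoint gene, lay at −0.82 ± 0.28. Immediate early genes had medians of 0.27 in o (28 of 35 higher) and −0.06 in n, inflammatory cytokine and adhesion genes 0.06 and −0.41, and hypoxia and glycolysis genes −0.05 and −0.14.

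Genes of the ribosome and of mitochondrial respiration lay higher in n. Of 71 respiratory chain genes 65 were higher over all 8 libraries (median 0.31), against 49.3% of all genes tested. In o 54 of 66 were lower (median −0.16), and in n 69 of 71 were higher (median 0.76). For the difference between kinds 48 of the 71 had an unadjusted p under 0.05, all with the higher effect in n. Over all genes the share was 6.85%. Atp5b, an ATP synthase subunit gene, stood at 382 and 516 CPM against 358 and 420.3 CPM in o and at 1035 and 1028 CPM against 1558 and 1449.6 CPM in n. Ndufs5, a complex I subunit gene, lay at 1.24 ± 0.46. Of 46 cytosolic ribosomal protein genes 39 were higher (median 0.28; 0.02 in o and 0.49 in n). Rpl14, a subunit of the large ribosomal particle, was higher in both kinds (0.70 ± 0.23), although the o libraries held at most 3.51 CPM of it.

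Several properties of the libraries moved with these differences. In n the E2 libraries gave more of their reads to genes in n1 (51.6%, and 39.9% in n2, against 37.5% and 38.8% with vehicle). Their TMM scaling factors were 0.956 and 0.922 against 1.27 and 1.31, and Rn45s, a ribosomal RNA precursor, took 2.94% and 3.83% of their gene counts against 5.48% and 5.52%. In o these shares differed less, for example 34.2% and 25.7% against 34.5% and 26.3% for Rn45s, and the TMM factors were 0.849 and 0.937 against 0.844 and 1.02. Across genes the E2 effect had a Spearman's rho with transcript length of −0.39 in n (10650 genes) and of 0.08 in o (10526 genes). With the median of genes of like length removed, the hepatocyte list lay at −0.25 in o and 0.56 in n (−0.30 and 0.68 before). The respiratory chain list then lay at −0.10 and 0.40 (−0.16 and 0.76 before), and the ribosomal protein list at 0.08 and 0.04 (0.02 and 0.49 before). The part of transcript length, read share and ribosomal RNA in these differences was not tested.

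Genes with the same direction in both kinds were sought among the 2639 genes of 50 CPM or more, by the same direction in all 4 suffixes and the lowest unadjusted p. There were 182 such genes higher (6.90% of the 2639) and 137 lower (5.19%), and none passed over all genes. The direction of the genes named from them was set by this choice. Dcxr, the xylulose reductase gene, stood at 1.13, 2.78, 197 and 222 CPM with vehicle and 3.402, 4.94, 374 and 439.7 CPM with E2, apart within both kinds (0.99, interval 0.51 to 1.46). After it on the higher side came Adck5 (0.87), Tmem160 (0.78), Nr2c2ap (0.65), Sil1, a chaperone cofactor gene (0.69), Pink1, a kinase gene of mitochondrial quality control (0.67), Idua, a lysosomal enzyme gene (0.74), and Pnp, a purine salvage gene (0.69). Agxt and Igfbp2, given above, were also among the higher genes picked by this rule. On the lower side stood, beside Mki67, Timd4, Ptprc, Mdc1, Hnf4a and Cpt1a, the giant muscle filament gene Neb (−0.71), the transcription factor gene Sall1 (−0.64), Nufip2 (−0.68) and Rere (−0.60). Over the alternative fits, each kind alone included, Rere ran from −1.13 to −0.13 and Nufip2 from −1.25 to −0.29. Neb ran from −1.10 to −0.44 and Sall1 from −0.77 to −0.52. Mki67 ran from −2.05 to −0.34 and was also among the genes with the lowest p for the difference between kinds. Neb stood at 513 to 899 CPM in the o libraries and at 5.86 to 16.0 CPM in the n libraries. Sall1 stood at 76.8, 86.7, 49.4 and 36.0 CPM with vehicle and 42.3, 66.8, 32.4 and 20.6 CPM with E2, the lower in each kind.

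**Figure D4:**
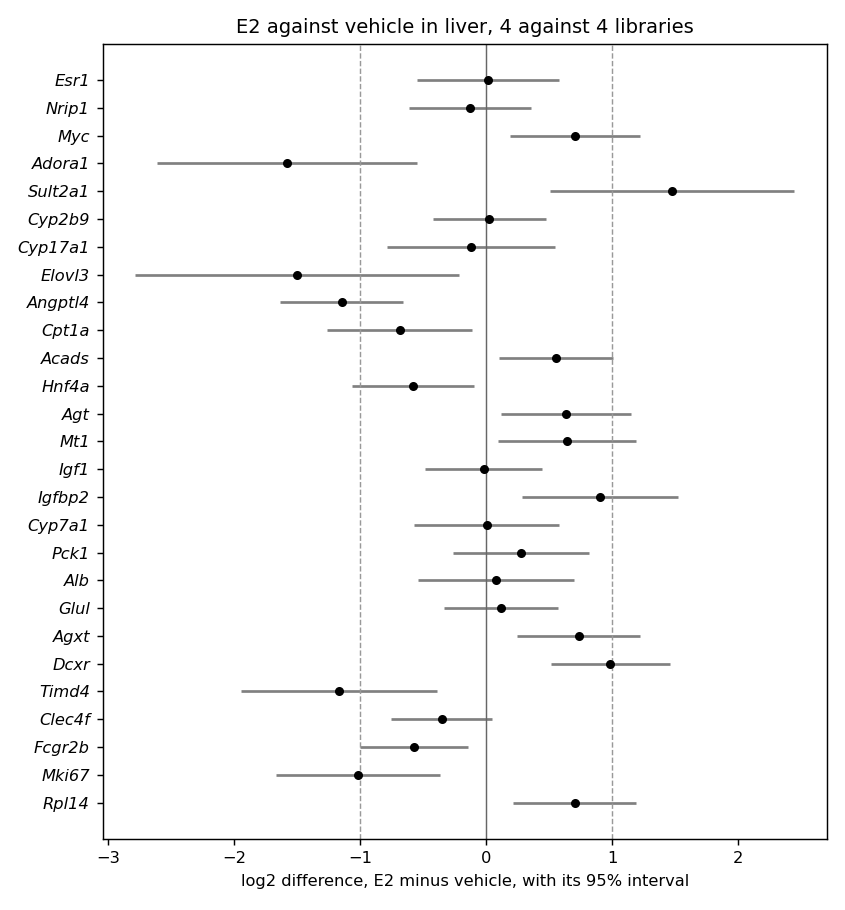
Log2 difference, E2 minus vehicle, with its 95% interval, for 27 genes named in the text, from all 8 liver libraries with library type as covariate; dashed lines mark a 2-fold difference. Esr1, Cyp2b9, Igf1, Cyp7a1, Alb and Glul have intervals within −1 and 1, and no gene passed after adjustment.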

How the data were processed

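RNA-seq of mouse liver pieces was analysed from 1 deposited table of reads per gene. Per the submitters' processing notes the authors used Bowtie 0.12.5, HTSeq 0.4.5p7, edgeR 3.4.2 and the mm9 build; strand setting and gene annotation: not given in the sources used here. The deposited values are estimated or expected counts in the sense that the table carries percentage lines at its end; every gene value was a whole number and was used as deposited. These 8 lines that name no gene were left out; per the table, reads outside genes were 48.0% to 75.2% of each liver library. Columns were assigned to groups by tissue and treatment in their names.

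Counts of 11726 of 24011 genes (filterByExpr, minimum count 10, minimum total 15) entered edgeR 4.0.16 (R 4.3.3): TMM scaling, quasi-likelihood fit, library type (o1, o2, n) and treatment as terms, Benjamini-Hochberg threshold 0.05. The SE was the log2 difference over the square root of F. CPM used TMM library sizes. Effects within o and within n were fitted alone, and the difference between kinds as an interaction. The fit was tested on simulated data. Alternatives were RLE and upper quartile scaling, DESeq2 1.42.0, limma 3.58.1 voom, other filters and terms, and leaving out libraries. Transcript lengths were the longest GENCODE M21 transcript per symbol (95.7% of tested genes), and their trend was removed in 20 bins.

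The comparison, gene lists and named genes were chosen with earlier results of these data known. Genes were named by fixed names, by lowest p with one direction in all suffixes at 50 CPM or more, by lowest p or highest level in a list, and by lowest p for the difference between kinds; of these the text gives a part, and Muc1, Spp1, Siglece, Fcgr2b, Atp5b, Apoe, C3, Hpd and the like stand as list members. Promoter sequences were taken from RefSeq (GRCm38.p6).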

Additional observations from a re-analysis of the deposited data

Results flagged for a closer look

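Of 146 groups of 4 libraries tested, on log2(CPM + 1), 3 held a library whose gap to the nearest other passed Dixon's critical value at 95%. They were Angptl4 in the E2 library o2 (5.10 CPM), Lifr in the E2 library n2 (259 CPM) and Orm2 in the vehicle library o1 (4.76 CPM). Chance gives about 1 in 20 for 4 libraries of like kind. Each group here mixes o and n libraries, so the count of 3 cannot be read against that rate.

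In 11 gene lists every E2 library of one kind had a median on one side of its vehicle mean and every E2 library of the other kind on the other side. The median difference of the E2 effect, n minus o on the log2 scale, was 0.93 for hepatocyte identity genes, 0.76 for acute phase and hepatokine genes, 0.74 for apolipoprotein and lipoprotein genes and 0.73 for periportal genes. It was 0.66 for urea cycle and amino acid catabolism genes, 0.59 for coagulation and complement genes, 0.55 for male-biased genes, 0.54 for drug and xenobiotic metabolism genes, 0.50 for female-biased genes, 0.48 for steroid and estrogen metabolism genes and 0.38 for bile acid genes. The difference was not tested for the lists.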

How the results depend on the processing

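The count of genes past the threshold for E2 was 0, also with RLE or upper quartile scaling, DESeq2, limma voom, a minimum count of 50, other library type terms, the replicate block and without Rn45s. It was 6 without a filter on low counts, 5 in the o libraries alone, 1 in the n libraries alone (Sult2a1) and 0 to 1 with a library or suffix left out (Sult2a1, each time without o2 libraries). For the difference between kinds it was 0, but 161 without a filter, 160 with DESeq2, 2 with RLE scaling, 2 with the replicate block, 1 without Rn45s and 0 to 43 with a library left out (43 without the E2 n1 library). The main fit gives o1 and o2 a level each and n1 and n2 a shared one, so that it compares same-numbered libraries in o only. The suffixes were not taken to pair the libraries by animal or culture, and the replicate block, which gives n1 and n2 a level each too, was an alternative: with the mean of each letter removed, deviations of same-numbered libraries had an r of 0.31 in o and −0.05 in n, and the replicate block put no gene past the threshold for E2.

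Signs turned for genes near 0 or opposed between kinds; the cause was not tested. In the o libraries alone the log2 difference was −0.029 for Esr1, −0.082 for Cyp2b9, −0.20 for A1bg, −0.60 for Cyp2d9, −0.19 for Lifr, −0.24 for Mt2, −0.62 for Cish, −0.38 for Alb, −0.27 for Cyp2e1, −0.23 for Hpd, −0.16 for Sds, −0.14 for Apoe, −0.23 for C3, −0.29 for Slc27a5, −0.14 for Pck1, 0.46 for Spp1 and −0.20 for Atp5b. In the n libraries alone it was 0.65 for Cyp17a1, 0.30 for Igf1 and −0.14 for Cyp7a1. Upper quartile scaling gave −0.018 for Esr1, −0.0034 for Cyp2b9 and −0.026 for Cyp7a1, and a minimum count of 50 gave −0.019, −0.021 and −0.037. Without library type Esr1 lay at −0.0032 and Cyp17a1 at 0.52. RLE scaling and DESeq2 each gave 0.027 for Igf1, and leaving out Rn45s gave −0.0079 for Cyp7a1. Without o1 of both groups the value was −0.038 for Cyp2b9, 0.051 for Cyp17a1, 0.081 for Igf1 and −0.022 for Cyp7a1, and without o2 0.00051 for Fabp1, 0.30 for Cyp17a1, 0.11 for Igf1 and −0.045 for Cyp7a1. Without n1 it was −0.045 for Esr1, −0.22 for Cish, −0.039 for Alb and −0.063 for Pck1, and without n2 −0.13 for Cyp2b9, −0.062 for Cyp2d9, −0.10 for Alb, −0.077 for Cyp2e1, −0.16 for Cyp7a1 and 0.15 for Spp1.

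With 1 library left out at a time the range was −0.074 to 0.070 for Esr1, −0.25 to 0.016 for Nrip1, −0.24 to 0.035 for Fabp1, −0.10 to 0.21 for Cyp2b9, −0.00020 to 0.35 for A1bg, −0.093 to 0.49 for Cyp2d9, −0.43 to 0.34 for Cyp17a1, −0.15 to 0.14 for Igf1, −0.082 to 0.80 for Cish, −0.084 to 0.36 for Alb, −0.20 to 0.36 for Cyp7a1 and −0.70 to 0.0022 for Spp1. The n minus o difference of Sult2a1 ran from −0.14 to 3.24. Of 32 list medians 20 had the other sign in the o libraries alone and 6 in the n libraries alone. Of 11726 intervals 1365 lay within 1.5-fold. With the E2 n1 library left out Myc lay at 0.46, Igfbp2 at 0.57 and Muc1 at −0.47, and with the E2 n2 library left out Ep300 lay at −0.36, Mt1 at 0.33, Mt2 at 0.21 and Akr1d1 at −0.33. Without the vehicle o2 library Elovl3 lay at −0.98, Mt2 at 1.08, Sds at 0.91 and Socs2 at 1.57, and without the vehicle o1 library Timd4 lay at −1.76.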
